A study of Mus musculus with 16 samples.

Results

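This account covers 37 genes of the cell cycle and of DNA replication in mouse primary cortical neuron cultures, in which the nuclear pore protein Nup153 was knocked down with short hairpin RNAs. The genes were taken as named symbols, not by their measured values, and all 37 had a row in both deposited count tables, which list 55304 symbols for silenced and 26371 for basal cultures. They were chosen to show whether the cultures held dividing cells and whether this differed between the groups. By role they were the proliferation antigen Mki67, 6 genes of cyclins and Cdk1, 5 of mitotic kinases, 4 of chromosome and kinetochore proteins, 6 of spindle motors and midzone proteins, 2 of ubiquitin ligase partners, 6 of the MCM helicase, 4 of the replication clamp and nucleotide supply, and 3 of transcription factors.

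Cortices of C57/BL6 embryos of embryonic day 17.5 to 19.5 were dissociated, and the pooled tissue of 1 litter made 1 biological replicate. Every culture, controls included, received an adeno-associated virus (AAV) carrying a hairpin on day 8 in vitro and was collected on day 13. Silenced cultures also received tetrodotoxin at 1 to 2 µM, which blocks action potentials, from day 12 for 24 hours and the NMDA receptor antagonist D-AP5 at 100 µM for the last 6 hours. Basal cultures received neither drug. The groups used here were silenced cultures with the Nup153 hairpin shNup153_2 (3 libraries), silenced cultures with the control hairpin shControl (3), basal cultures with shNup153_2 (2), basal cultures with a second Nup153 hairpin, shNup153_1 (2), and basal cultures with shControl (4). The promoter that drove the hairpins, and so the cells in which they were expressed, is not in the labels. Only cultures checked for sufficient knockdown were sequenced. Silenced and basal libraries came in separate tables, so the drug treatment and the table cannot be told apart.

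The 14 libraries held between 26863535 and 56299817 counts, and levels are given as CPM, the count of a gene relative to the total of its library, scaled with TMM factors. Nup153 itself had 10.6, 13.4 and 9.38 CPM in silenced shNup153_2 libraries and 64.2, 52.1 and 61.8 CPM in silenced shControl libraries. It had 13.5 and 11.6 CPM in basal shNup153_2, 17.1 and 27.98 CPM in basal shNup153_1 and 94.5, 52.9, 77.8 and 56.8 CPM in basal shControl libraries. Every library labelled with a Nup153 hairpin lay below every shControl library of its state. Since only cultures checked for sufficient knockdown were sequenced, a fall was a condition of their use. The fall passed the test with shNup153_2 in silenced cultures (log2 fold change -2.40, SE 0.17, adjusted p = 0.00534), with shNup153_2 in basal cultures (log2 fold change -2.52, SE 0.29, adjusted p = 0.00502) and with shNup153_1 (log2 fold change -1.67, SE 0.32, adjusted p = 0.0122). Of 10 markers of cortical neurons all were detected, and their summed level lay between 4098 and 7283 CPM over all libraries. Only 3 of 9 microglial markers had values usable in every library, and they summed to between 0.177 and 1.57 CPM.

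Progress through the cell cycle is driven by cyclins, which activate cyclin-dependent kinases in turn. Cyclin E acts at entry into S phase, cyclin A through S phase and G2, and cyclin B with Cdk1 at entry into mitosis. The MCM helicase, the sliding clamp and the enzymes of nucleotide supply copy the genome in S phase, and the kinases, motors and kinetochore proteins of mitosis then separate it. Neurons are post-mitotic, but cultures of embryonic cortex also hold glial precursors that can divide. These are bulk libraries, in which fewer cells of a type and less RNA per cell cannot be told apart.

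Per kilobase of exon, the members ranged widely in basal shControl cultures. The most abundant were 14.1 CPM per kb for Ccne1, 9.43 for Pcna, 6.11 for Ccne2, 5.84 for Mcm7 and 4.29 for E2f1. At the low end were 0.0716 CPM per kb for Mki67, 0.0680 for Bub1, 0.0519 for Cenpf, 0.0505 for Cdk1, 0.0471 for Ccnb1 and 0.0463 for Aurkb. The genes at the upper end were thus of G1/S and replication, and those at the lower end Mki67 and genes of mitosis. Between these ends the roles overlapped, with 0.407 for Mcm3 and 0.443 for Tyms below 1.03 for Plk1 and 1.00 for Ccnb2. Over all 37 genes the summed level was 303 to 378 CPM in silenced shNup153_2, 206 to 438 CPM in silenced shControl, 157 to 165 CPM in basal shNup153_2, 163 to 205 CPM in basal shNup153_1 and 197 to 239 CPM in basal shControl libraries.

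**Figure D1:**
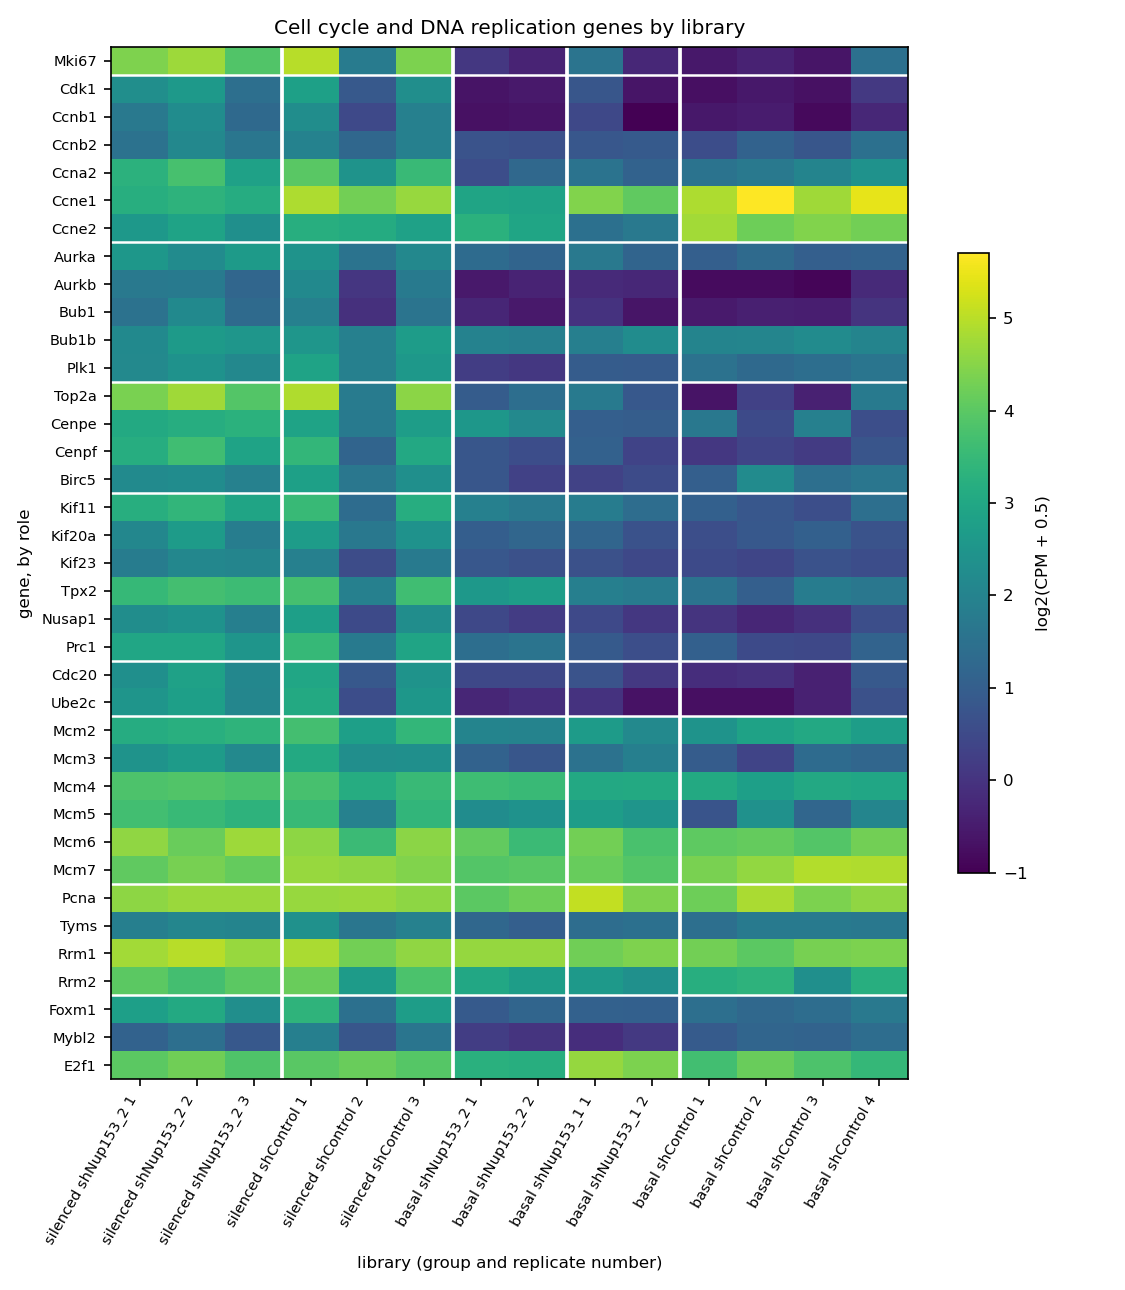
Level of each of the 37 genes (rows, grouped by role) in each of the 14 libraries (columns, by group), as log2(CPM + 0.5) on the colour scale. Mki67 and Top2a are high in the silenced libraries other than silenced shControl replicate 2, and Ccne1 and Ccne2 are high in basal shControl libraries.

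In shControl cultures, 20 of the 37 genes rose in the silenced libraries relative to the basal ones and 1 fell, at a Benjamini-Hochberg adjusted p (FDR) under 0.05 by edgeR's quasi-likelihood test. Of all 20926 genes tested in this comparison 12.4% passed, 6.09% higher and 6.27% lower. The median log2 fold change of the members was 1.34, against -0.03 over all genes. The silenced libraries lay wholly above the basal ones for 14 members and wholly below for 1, where 13.7% and 9.24% of all genes did so. By role, the genes that rose were the proliferation antigen, 3 of 6 genes of cyclins and Cdk1, 4 of 5 mitotic kinases, 6 of 6 spindle proteins and 2 of 2 ubiquitin ligase partners, 2 of 4 chromosome and kinetochore genes, 1 of 6 MCM genes, 0 of 4 genes of clamp and nucleotide supply and 1 of 3 transcription factors. No difference between these role groups was tested.

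**Figure D2:**
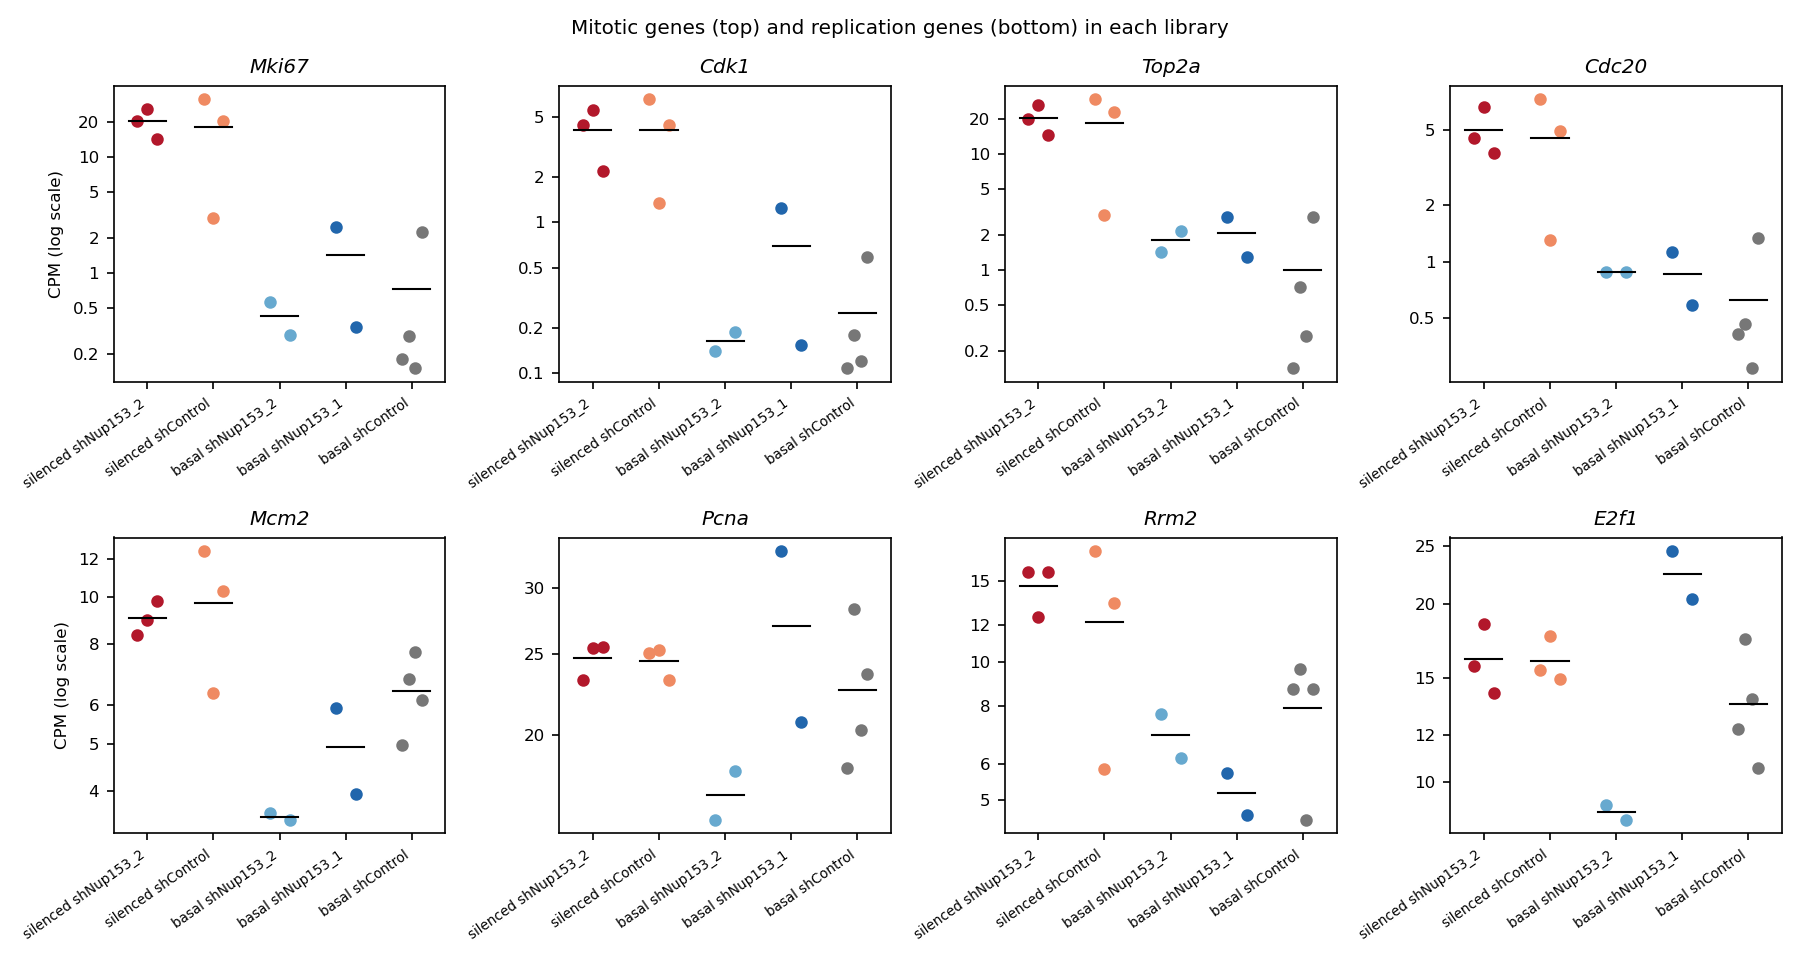
CPM on a log axis of 4 mitotic genes (top row) and 4 replication genes (bottom row) in each library (1 point each), with the group mean as a line. Silenced libraries lie above basal ones for Mki67, Cdk1 and Top2a, with silenced shControl replicate 2 lowest among them, and silenced and basal shControl libraries overlap for Pcna and E2f1.

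Mki67, the antigen of cycling cells, had 20.5, 26.0 and 14.2 CPM in silenced shNup153_2 libraries and 31.3, 2.99 and 20.4 CPM in silenced shControl libraries. It had 0.556 and 0.293 CPM in basal shNup153_2, 2.49 and 0.338 CPM in basal shNup153_1 and 0.179, 0.287, 0.150 and 2.27 CPM in basal shControl libraries. These basal values stood for few reads, with 98 to 1062 counts per silenced shControl library against 5 to 73 per basal shControl library and 11 to 24 per basal shNup153_2 library. Silenced shControl replicate 2 was far below its 2 companions, and basal shControl replicate 4 was well above its 3 companions, so that the gap between the groups was narrow although they did not overlap. Between silenced and basal shControl, Mki67 differed by log2 fold change 4.64, SE 0.91, adjusted p = 0.00829. Leaving out basal shControl replicate 4 gave a log2 fold change of 6.46 (adjusted p = 0.00192), and leaving out silenced shControl replicate 1 gave 4.01 (adjusted p = 0.0364).

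Cdk1, the kinase of mitotic entry, had 4.47, 5.63 and 2.21 CPM in silenced shNup153_2 libraries and 6.57, 1.34 and 4.45 CPM in silenced shControl libraries. It had 0.139 and 0.186 CPM in basal shNup153_2, 1.24 and 0.154 CPM in basal shNup153_1 and 0.107, 0.179, 0.120 and 0.590 CPM in basal shControl libraries. Silenced libraries were higher than basal shControl ones without overlap (log2 fold change 4.03, SE 0.65, adjusted p = 0.00334). The cyclin B gene Ccnb1 followed a like order, with 2.75, 4.28 and 1.96 CPM in silenced shNup153_2 libraries and 4.39, 0.884 and 3.30 CPM in silenced shControl libraries. It had 0.116 and 0.133 CPM in basal shNup153_2, 0.866 and 0 CPM in basal shNup153_1 and 0.179, 0.215, 0.0599 and 0.342 CPM in basal shControl libraries. The single library without a count, shNup153_1 replicate 2, allows a level of up to 0.0921 CPM (3 counts, counting error only). Ccnb1 rose in silenced shControl cultures (log2 fold change 3.79, SE 0.58, adjusted p = 0.00259). Its other cyclin B gene, Ccnb2, had 2.41, 3.86 and 2.58 CPM in silenced shNup153_2 libraries and 3.42, 1.86 and 3.27 CPM in silenced shControl libraries. It had 1.14 and 1.06 CPM in basal shNup153_2, 1.28 and 1.35 CPM in basal shNup153_1 and 1.00, 1.65, 1.23 and 2.27 CPM in basal shControl libraries. The shControl groups overlapped and Ccnb2 did not pass there (log2 fold change 0.85, SE 0.32, adjusted p = 0.111). Both cyclin B genes have a processed pseudogene copy with which reads can be shared.

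Cyclin A, from Ccna2, had 9.49, 12.9 and 6.65 CPM in silenced shNup153_2 libraries and 15.3, 4.97 and 11.3 CPM in silenced shControl libraries. It had 0.997 and 1.92 CPM in basal shNup153_2, 2.41 and 1.66 CPM in basal shNup153_1 and 2.41, 2.80, 3.60 and 4.88 CPM in basal shControl libraries. Silenced shControl replicate 2 was only just above the highest basal shControl library, and Ccna2 rose (log2 fold change 1.57, SE 0.39, adjusted p = 0.0231). Of its exon sequence 12.5% is overlapped by Exosc9 on the opposite strand.

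The cyclin E genes were not among those that rose. Ccne2 had 5.46, 6.94 and 4.52 CPM in silenced shNup153_2 libraries and 8.70, 8.26 and 6.60 CPM in silenced shControl libraries. It had 9.16 and 7.19 CPM in basal shNup153_2, 2.26 and 2.79 CPM in basal shNup153_1 and 27.0, 18.1, 21.3 and 19.0 CPM in basal shControl libraries. Every basal shControl library lay above every other library. Ccne2 was the only member that fell in silenced shControl cultures (log2 fold change -1.50, SE 0.21, adjusted p = 0.00174), and Ints8 overlaps 17.4% of its exons on the opposite strand. Ccne1 had 8.68, 9.60 and 8.35 CPM in silenced shNup153_2 libraries and 28.7, 18.9 and 25.04 CPM in silenced shControl libraries. It had 7.07 and 6.81 CPM in basal shNup153_2, 21.1 and 16.1 CPM in basal shNup153_1 and 28.9, 51.6, 26.5 and 43.2 CPM in basal shControl libraries. Its shControl values overlapped between the states and the difference did not pass (log2 fold change -0.69, SE 0.23, adjusted p = 0.0719).

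Among the mitotic kinases, Aurkb, the kinase of the chromosomal passenger complex, had 2.78, 2.83 and 1.83 CPM in silenced shNup153_2 libraries and 4.07, 0.548 and 2.84 CPM in silenced shControl libraries. It had 0.185 and 0.293 CPM in basal shNup153_2, 0.377 and 0.338 CPM in basal shNup153_1 and 0.0714, 0.0717, 0.0300 and 0.373 CPM in basal shControl libraries. It rose with no overlap between shControl groups (log2 fold change 4.15, SE 0.73, adjusted p = 0.00485). Aurka, which acts at the centrosomes, had 5.37, 4.21 and 5.82 CPM in silenced shNup153_2 libraries and 4.98, 2.44 and 3.87 CPM in silenced shControl libraries. It had 2.04 and 1.73 CPM in basal shNup153_2, 2.75 and 1.75 CPM in basal shNup153_1 and 1.54, 1.97, 1.56 and 1.65 CPM in basal shControl libraries. The rise was smaller than for Aurkb but the groups were again apart (log2 fold change 1.12, SE 0.26, adjusted p = 0.0164). Plk1, a kinase of mitotic entry and cytokinesis, had 3.93, 4.89 and 3.86 CPM in silenced shNup153_2 libraries and 6.87, 3.29 and 5.48 CPM in silenced shControl libraries. It had 0.672 and 0.559 CPM in basal shNup153_2, 1.43 and 1.38 CPM in basal shNup153_1 and 2.37, 1.94, 2.19 and 2.55 CPM in basal shControl libraries. Every silenced library exceeded every basal library (log2 fold change 1.15, SE 0.25, adjusted p = 0.0139). The checkpoint kinase Bub1 had 2.41, 4.00 and 1.98 CPM in silenced shNup153_2 libraries and 3.30, 0.457 and 2.48 CPM in silenced shControl libraries. It had 0.325 and 0.186 CPM in basal shNup153_2, 0.490 and 0.154 CPM in basal shNup153_1 and 0.196, 0.251, 0.240 and 0.497 CPM in basal shControl libraries. The lowest silenced library, shControl replicate 2, lay within the basal range, and Bub1 rose (log2 fold change 2.77, SE 0.58, adjusted p = 0.011). The values of its relative Bub1b overlapped between the states, with 4.07, 5.74 and 5.22 CPM in silenced shNup153_2 libraries and 5.28, 3.29 and 5.9999 CPM in silenced shControl libraries. It had 3.45 and 3.25 CPM in basal shNup153_2, 3.24 and 4.33 CPM in basal shNup153_1 and 3.54, 3.62, 4.19 and 3.60 CPM in basal shControl libraries. It did not pass (log2 fold change 0.33, SE 0.23, adjusted p = 0.381).

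Top2a, the topoisomerase that untangles sister chromosomes, had 19.97, 26.5 and 14.5 CPM in silenced shNup153_2 libraries and 29.3, 2.96 and 22.6 CPM in silenced shControl libraries. It had 1.44 and 2.16 CPM in basal shNup153_2, 2.86 and 1.29 CPM in basal shNup153_1 and 0.143, 0.717, 0.270 and 2.86 CPM in basal shControl libraries. Silenced shControl replicate 2 and basal shControl replicate 4 almost met, and Top2a rose (log2 fold change 4.18, SE 0.89, adjusted p = 0.0115). Cenpf, a kinetochore protein, had 8.49, 12.0 and 6.87 CPM in silenced shNup153_2 libraries and 10.3, 1.74 and 7.72 CPM in silenced shControl libraries. It had 1.23 and 1.01 CPM in basal shNup153_2, 1.62 and 0.768 CPM in basal shNup153_1 and 0.571, 0.789, 0.629 and 1.21 CPM in basal shControl libraries. Its groups did not overlap (log2 fold change 3.00, SE 0.50, adjusted p = 0.00376). Birc5, or survivin, a partner of Aurkb, had 4.10, 4.25 and 3.36 CPM in silenced shNup153_2 libraries and 6.49, 2.68 and 4.53 CPM in silenced shControl libraries. It had 1.23 and 0.719 CPM in basal shNup153_2, 0.753 and 0.952 CPM in basal shNup153_1 and 1.55, 4.23, 2.22 and 2.61 CPM in basal shControl libraries. The shControl groups overlapped and Birc5 did not pass (log2 fold change 0.74, SE 0.36, adjusted p = 0.209). The kinetochore motor gene Cenpe ranged from 2.86 to 6.84 CPM in silenced shControl and 0.932 to 3.27 CPM in basal shControl libraries and did not pass either (log2 fold change 1.34, SE 0.43, adjusted p = 0.0615).

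All 6 spindle genes rose in silenced shControl cultures, although the call of Kif23 held in only 6 of 18 alternative fits. The spindle motor Kif11 had 8.65, 10.1 and 6.98 CPM in silenced shNup153_2 libraries and 10.9, 2.07 and 8.62 CPM in silenced shControl libraries. It had 3.27 and 2.77 CPM in basal shNup153_2, 3.05 and 2.12 CPM in basal shNup153_1 and 1.57, 1.25, 1.02 and 2.21 CPM in basal shControl libraries. Of the silenced libraries, shControl replicate 2 lay just inside the basal range (log2 fold change 2.19, SE 0.45, adjusted p = 0.0101). Tpx2, which activates Aurora A on the spindle, had 10.8, 12.4 and 11.5 CPM in silenced shNup153_2 libraries and 12.7, 3.29 and 11.9 CPM in silenced shControl libraries. It had 5.42 and 6.15 CPM in basal shNup153_2, 3.24 and 2.98 CPM in basal shNup153_1 and 2.45, 1.54, 3.00 and 2.67 CPM in basal shControl libraries. Its shControl groups were apart (log2 fold change 1.89, SE 0.38, adjusted p = 0.0089). Nusap1, a protein that bundles spindle microtubules, had 4.35, 4.89 and 3.24 CPM in silenced shNup153_2 libraries and 6.43, 0.914 and 4.34 CPM in silenced shControl libraries. It had 0.858 and 0.639 CPM in basal shNup153_2, 0.904 and 0.553 CPM in basal shNup153_1 and 0.499996, 0.323, 0.449 and 1.03 CPM in basal shControl libraries. Replicate 2 again fell within the basal shControl range (log2 fold change 2.70, SE 0.55, adjusted p = 0.00975).

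Of the midzone proteins, Prc1, which crosslinks the microtubules of the central spindle, had 7.31, 7.36 and 5.17 CPM in silenced shNup153_2 libraries and 10.7, 2.86 and 7.06 CPM in silenced shControl libraries. It had 2.16 and 2.48 CPM in basal shNup153_2, 1.36 and 1.01 CPM in basal shNup153_1 and 1.57, 0.932, 0.869 and 1.71 CPM in basal shControl libraries. Every silenced library was above every basal one (log2 fold change 2.37, SE 0.40, adjusted p = 0.00401). On the opposite strand, Rccd1 overlaps 11.1% of Prc1 exons. Kif20a, a motor of cytokinesis, had 3.82, 5.88 and 3.06 CPM in silenced shNup153_2 libraries and 6.01, 2.71 and 4.88 CPM in silenced shControl libraries. It had 1.51 and 1.81 CPM in basal shNup153_2, 1.77 and 1.11 CPM in basal shNup153_1 and 1.02, 1.29, 1.59 and 1.15 CPM in basal shControl libraries. These groups did not overlap (log2 fold change 1.798, SE 0.31, adjusted p = 0.00461), but Cdc23 overlaps 29.3% of its exons on the other strand. The cytokinesis motor Kif23 had 3.01, 3.82 and 3.66 CPM in silenced shNup153_2 libraries and 3.27, 0.975 and 2.81 CPM in silenced shControl libraries. It had 1.25 and 1.09 CPM in basal shNup153_2, 1.09 and 0.860 CPM in basal shNup153_1 and 0.911, 0.824, 1.11 and 0.994 CPM in basal shControl libraries. Here the shControl groups overlapped in 1 silenced library (log2 fold change 1.24, SE 0.34, adjusted p = 0.0366).

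Cdc20, which activates the anaphase-promoting complex, had 4.58, 6.69 and 3.79 CPM in silenced shNup153_2 libraries and 7.31, 1.31 and 4.96 CPM in silenced shControl libraries. It had 0.881 and 0.878 CPM in basal shNup153_2, 1.13 and 0.584 CPM in basal shNup153_1 and 0.411, 0.466, 0.270 and 1.34 CPM in basal shControl libraries. Ube2c, the conjugating enzyme of that complex, had 5.11, 6.41 and 3.74 CPM in silenced shNup153_2 libraries and 7.87, 1.01 and 5.40 CPM in silenced shControl libraries. It had 0.325 and 0.426 CPM in basal shNup153_2, 0.490 and 0.123 CPM in basal shNup153_1 and 0.107, 0.108, 0.270 and 1.09 CPM in basal shControl libraries. For both, silenced shControl replicate 2 met basal shControl replicate 4 while all other silenced libraries were well above. Cdc20 rose (log2 fold change 2.82, SE 0.58, adjusted p = 0.0102), and so did Ube2c (log2 fold change 3.57, SE 0.77, adjusted p = 0.0125). Tnnc2 overlaps 22.8% of Ube2c exons on the opposite strand.

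Of the 10 genes of replication, 1 rose in silenced shControl cultures. Of the MCM genes, Mcm3 had 4.93, 5.91 and 3.96 CPM in silenced shNup153_2 libraries and 7.87, 4.51 and 4.58 CPM in silenced shControl libraries. It had 1.65 and 1.22 CPM in basal shNup153_2, 2.37 and 3.22 CPM in basal shNup153_1 and 1.45, 0.789, 2.04 and 1.83 CPM in basal shControl libraries. It was the only MCM gene that rose in shControl cultures (log2 fold change 1.83, SE 0.33, adjusted p = 0.00506). Mcm2 had 8.38, 8.96 and 9.84 CPM in silenced shNup153_2 libraries and 12.4, 6.37 and 10.3 CPM in silenced shControl libraries. It had 3.59 and 3.49 CPM in basal shNup153_2, 5.91 and 3.93 CPM in basal shNup153_1 and 4.96, 6.77, 7.73 and 6.15 CPM in basal shControl libraries. Its shControl groups overlapped and it did not pass (log2 fold change 0.55, SE 0.23, adjusted p = 0.138). Mcm4, Mcm5, Mcm6 and Mcm7 did not pass either. Their levels ran over 8.35 to 12.9, 3.35 to 10.9, 11.4 to 23.3 and 20.9 to 24.8 CPM in silenced shControl libraries. In basal shControl libraries they ran over 6.42 to 7.96, 1.16 to 4.77, 14.4 to 19.0 and 20.1 to 29.9 CPM.

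Pcna, the sliding clamp, had 23.3, 25.4 and 25.5 CPM in silenced shNup153_2 libraries and 25.1, 25.3 and 23.3 CPM in silenced shControl libraries. It had 15.8 and 18.1 CPM in basal shNup153_2, 33.3 and 20.7 CPM in basal shNup153_1 and 18.2, 28.3, 20.3 and 23.7 CPM in basal shControl libraries. Silenced and basal shControl libraries overlapped (log2 fold change 0.07, SE 0.15, adjusted p = 0.814), and 2 processed pseudogenes of Pcna can share its reads. Rrm2, a subunit of ribonucleotide reductase, had 15.7, 12.5 and 15.7 CPM in silenced shNup153_2 libraries and 17.4, 5.85 and 13.4 CPM in silenced shControl libraries. It had 7.67 and 6.18 CPM in basal shNup153_2, 5.72 and 4.64 CPM in basal shNup153_1 and 8.73, 9.64, 4.52 and 8.73 CPM in basal shControl libraries. The basal range held silenced shControl replicate 2, and Rrm2 did not pass (log2 fold change 0.58, SE 0.33, adjusted p = 0.29). Tyms, thymidylate synthase, had 3.22, 3.68 and 3.54 CPM in silenced shNup153_2 libraries and 4.78, 2.59 and 3.33 CPM in silenced shControl libraries. It had 1.88 and 1.54 CPM in basal shNup153_2, 2.15 and 2.27 CPM in basal shNup153_1 and 2.25, 2.90, 2.91 and 2.73 CPM in basal shControl libraries. Its shControl groups overlapped and it did not pass (log2 fold change 0.35, SE 0.23, adjusted p = 0.359). A processed pseudogene of Tyms can share its reads. Rrm1, the other reductase subunit, ran over 19.0 to 28.6 CPM in silenced shControl and 15.6 to 20.3 CPM in basal shControl libraries.

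Of the transcription factors, Foxm1, which drives genes of G2 and mitosis, had 6.34, 7.90 and 4.49 CPM in silenced shNup153_2 libraries and 9.76, 2.25 and 6.14 CPM in silenced shControl libraries. It had 1.37 and 1.78 CPM in basal shNup153_2, 1.62 and 1.57 CPM in basal shNup153_1 and 2.21, 1.90, 2.13 and 2.80 CPM in basal shControl libraries. It rose although replicate 2 overlapped the basal range (log2 fold change 1.37, SE 0.39, adjusted p = 0.0411). The call of Foxm1 held in only 6 of 18 alternative fits. Mybl2, a partner of the MuvB complex at those genes, had 1.67, 2.23 and 1.30 CPM in silenced shNup153_2 libraries and 3.18, 1.22 and 2.54 CPM in silenced shControl libraries. It had 0.672 and 0.506 CPM in basal shNup153_2, 0.414 and 0.584 CPM in basal shNup153_1 and 1.39, 1.79, 1.68 and 2.11 CPM in basal shControl libraries. It did not pass between shControl groups (log2 fold change 0.36, SE 0.33, adjusted p = 0.515). E2f1, a factor of S-phase entry, had 15.7, 18.5 and 14.1 CPM in silenced shNup153_2 libraries and 15.4, 17.6 and 14.9 CPM in silenced shControl libraries. It had 9.13 and 8.62 CPM in basal shNup153_2, 24.6 and 20.4 CPM in basal shNup153_1 and 12.3, 17.5, 13.8 and 10.6 CPM in basal shControl libraries. It did not pass (log2 fold change 0.19, SE 0.18, adjusted p = 0.53).

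The count of rises in shControl cultures depended on 1 library. Without silenced shControl replicate 1, 12 members passed, 11 of them higher, against 21 in all. Without silenced shControl replicate 2, the library low for mitotic genes, 25 passed. Over all genes, leaving out 1 library gave 1069 to 3426 calls, against 2586 with all libraries. The calls of Kif23 and Foxm1 were also lost with limma-voom, with the replicate number as a block and without any 1 of the basal shControl libraries. Leaving out basal shControl replicate 4 moved the fold change of 6 of the 21 genes by more than 1.5-fold (Mki67, Cdk1, Aurkb, Top2a, Cdc20 and Ube2c), each upward. The largest of those values was 6.46 on the log2 scale, for Mki67. Cdk1 and Ccnb1 passed the filter on low counts only through the silenced libraries. Among the 35 members that pass it in basal libraries alone, 18 rose and 1 fell, with a median log2 fold change of 1.24.

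**Figure D3:**
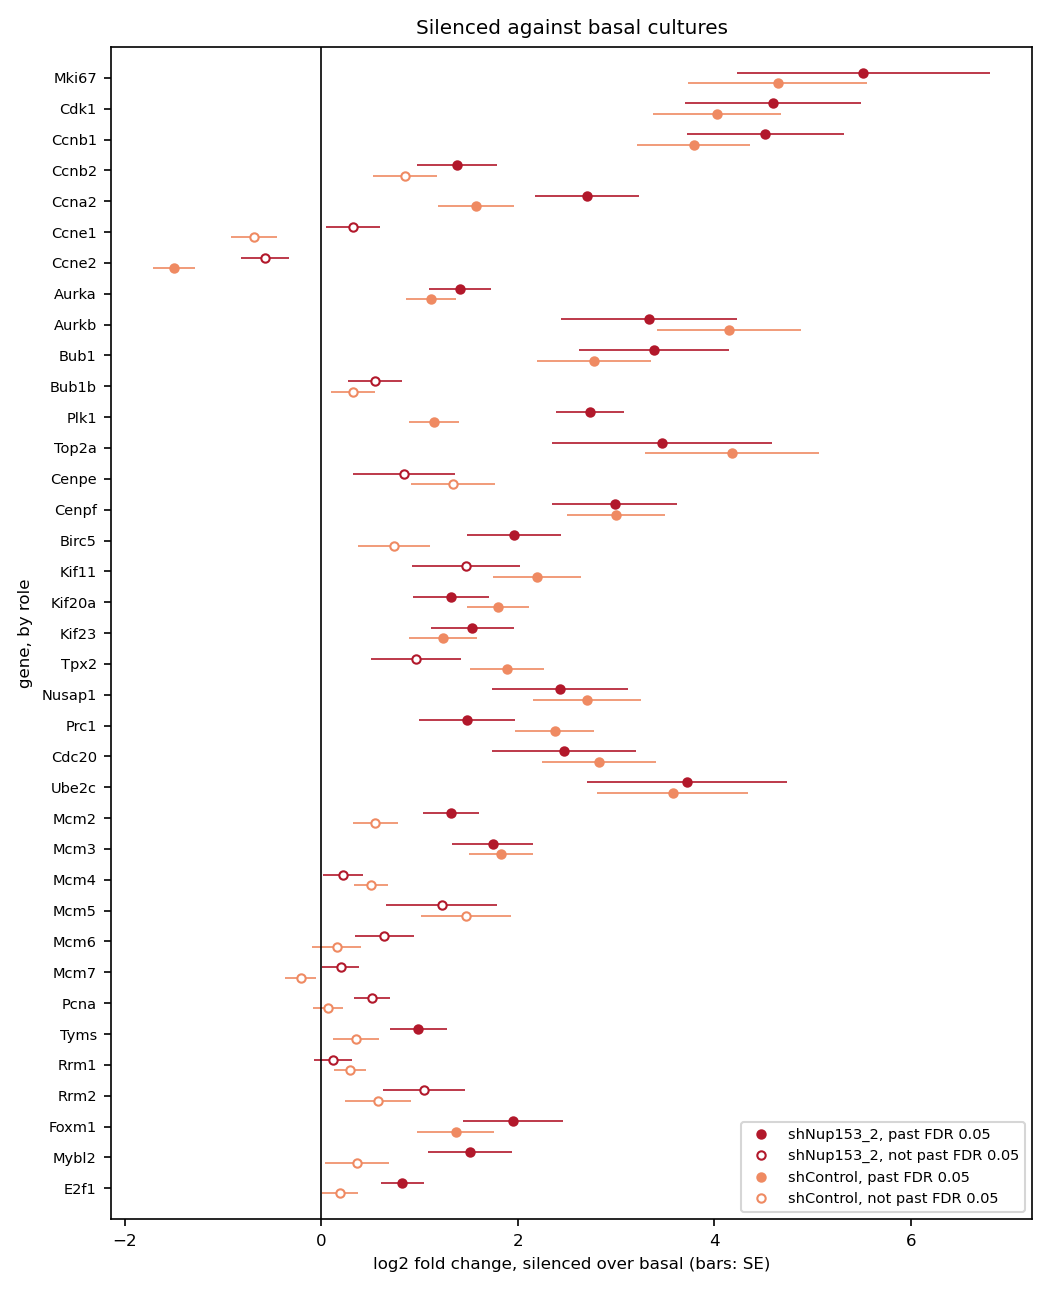
Log2 fold change of silenced over basal cultures for each of the 37 genes with shNup153_2 and with shControl, with bars for the standard error and filled points for FDR under 0.05. Mki67 is at 5.52 with shNup153_2 and 4.64 with shControl, and Ccne2 at -0.57 and -1.50.

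In shNup153_2 cultures, 24 of the 37 genes rose in silenced relative to basal libraries and 0 fell, where 9.39% of all 20926 genes rose and 12.3% fell. By DESeq2 27 members passed, and 28 had an unadjusted p under 0.05 by edgeR. Of all 20926 genes, 5974 passed by DESeq2 and 8410 had an unadjusted p under 0.05 by edgeR. The median log2 fold change was 1.47, against 0.01 over all genes. Of the genes that rose, Mki67 changed most (log2 fold change 5.52, SE 1.29, adjusted p = 0.0141), followed by Cdk1 (log2 fold change 4.60, SE 0.90, adjusted p = 0.0067) and Ccnb1 (log2 fold change 4.52, SE 0.80, adjusted p = 0.00427). Cdk1 and Ccnb1 were tested only because the silenced libraries, where they are high, took them past the filter on low counts. Plk1 had the smallest adjusted p (log2 fold change 2.74, SE 0.35, adjusted p = 0.000827). Genes past the threshold here but not in shControl cultures were Ccnb2 (log2 fold change 1.38, SE 0.41, adjusted p = 0.034), Birc5 (log2 fold change 1.96, SE 0.48, adjusted p = 0.0169), Mcm2 (log2 fold change 1.32, SE 0.29, adjusted p = 0.0106), Tyms (log2 fold change 0.99, SE 0.29, adjusted p = 0.0335), Mybl2 (log2 fold change 1.51, SE 0.43, adjusted p = 0.0291) and E2f1 (log2 fold change 0.82, SE 0.22, adjusted p = 0.0231). Kif11 (log2 fold change 1.47, SE 0.55, adjusted p = 0.0717) and Tpx2 (log2 fold change 0.96, SE 0.46, adjusted p = 0.134) passed in shControl cultures but not here.

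Between these 2 comparisons, which share no library but were fitted together, 18 genes rose in both. That is 75% of the 24 in shNup153_2 cultures and 90% of the 20 in shControl cultures, and 11 of the 37 rose in neither. The silenced shNup153_2 libraries lay wholly above the basal ones for 36 members and wholly below for 1, Ccne2, where 34% and 31.1% of all genes did so. On leaving out 1 library, calls changed over all genes too, so the counts below are not particular to the members. The members' median log2 fold change stayed between 1.34 and 1.54 in these fits. The basal arm held only 2 libraries. Without its replicate 1, 1 member passed, without its replicate 2, 3 passed, and the counts were 11, 15 and 17 without silenced shNup153_2 replicates 1, 2 and 3. Among the 35 members that pass the filter in basal libraries alone, 22 rose and 0 fell, with a median of 1.41.

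The promoters of the members were read from RefSeq (GRCm38.p6), from 250 bases before to 50 bases after the annotated start, and 30 of the 37 were matched. Genes expressed in G2 and mitosis often carry a cell cycle gene homology region (CHR, TTTGAA), near which the MuvB complex binds, and CCAAT boxes, bound by NF-Y, whereas E2F factors bind words such as TTTCCCGC, TTTCGCGC, TTTGCCGC and TTTGGCGC. Each word was searched on both strands, and the E2F words can overlap one another. The sequences below show a gene of mitotic entry, a chromosome gene and a ubiquitin ligase partner that rose in silenced shControl cultures, and an MCM gene that did not pass. Capitals mark the words found, on either strand, and all 4 genes lie on the minus strand, read 5′ to 3′.
Cdk1 (chr10:69352863-69353162): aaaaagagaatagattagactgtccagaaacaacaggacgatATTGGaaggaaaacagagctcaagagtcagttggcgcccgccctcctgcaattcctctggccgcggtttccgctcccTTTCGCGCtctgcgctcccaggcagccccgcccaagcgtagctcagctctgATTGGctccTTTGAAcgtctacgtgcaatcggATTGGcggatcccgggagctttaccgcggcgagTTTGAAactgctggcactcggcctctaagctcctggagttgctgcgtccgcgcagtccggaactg
Top2a (chr11:99024140-99024439): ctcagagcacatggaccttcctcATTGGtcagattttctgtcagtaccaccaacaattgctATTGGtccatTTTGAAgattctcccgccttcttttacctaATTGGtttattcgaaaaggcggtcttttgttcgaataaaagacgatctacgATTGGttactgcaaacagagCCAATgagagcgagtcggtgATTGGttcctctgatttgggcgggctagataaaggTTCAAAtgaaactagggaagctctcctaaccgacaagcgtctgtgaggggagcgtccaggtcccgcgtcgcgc
Cdc20 (chr4:118437294-118437593): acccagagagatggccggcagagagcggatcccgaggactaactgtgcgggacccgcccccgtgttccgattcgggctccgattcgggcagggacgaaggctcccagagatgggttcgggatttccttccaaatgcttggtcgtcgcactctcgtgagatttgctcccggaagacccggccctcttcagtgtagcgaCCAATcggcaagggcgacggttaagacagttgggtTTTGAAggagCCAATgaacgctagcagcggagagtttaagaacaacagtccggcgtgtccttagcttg
Mcm6 (chr1:128359656-128359955): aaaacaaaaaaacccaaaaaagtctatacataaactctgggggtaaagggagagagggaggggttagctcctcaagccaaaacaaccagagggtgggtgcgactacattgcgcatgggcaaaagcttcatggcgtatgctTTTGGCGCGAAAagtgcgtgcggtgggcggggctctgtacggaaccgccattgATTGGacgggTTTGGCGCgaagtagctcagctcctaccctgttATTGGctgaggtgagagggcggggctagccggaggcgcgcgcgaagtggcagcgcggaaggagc
Cdk1 holds CHR, CCAAT and E2F words, Top2a and Cdc20 hold CHR and CCAAT words, and Mcm6 holds CCAAT and E2F words but no CHR word.

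Over the matched promoters, the CHR word was in 11 of the 15 of members that rose in silenced shControl cultures (73.3%), in 3 of the 15 of the other members (20%) and in 18.1% of all 27025 promoters. CCAAT was in 14 of 15 (93.3%), in 10 of 15 (66.7%) and in 37.9% of all. An E2F word was in 2 of 15 (13.3%), in 3 of 15 (20%) and in 2.32% of all. CHR and CCAAT stood together in 73.3% of promoters of genes that rose, 20% of the others and 7.12% of all. These are matches of letters in 1 window per gene, and no binding was measured.

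Of 97 other cell cycle genes, 96 were in both tables, and 1, Sgol1, was not analysed here. In shControl cultures 17 of the 96 rose in silenced libraries and 7 fell, where 6.09% of all genes rose and 6.27% fell. Their median log2 fold change was 0.27. Named by smallest p, the kinase Ttk (log2 fold change 1.94, SE 0.30, adjusted p = 0.00273), the kinetochore gene Ndc80 (log2 fold change 2.39, SE 0.38, adjusted p = 0.0033) and the condensin gene Ncapd2 (log2 fold change 0.92, SE 0.15, adjusted p = 0.00334) rose, and the APC/C subunit gene Anapc2 fell (log2 fold change -0.66, SE 0.12, adjusted p = 0.00479). The origin licensing and firing list had 5 of 18 genes higher and 0 lower, the replication fork list 2 higher and 1 lower of 21, and the list of cyclin-dependent kinase inhibitors 1 higher and 3 lower of 8. Cdkn1a, the inhibitor p21, had 32.0, 69.6 and 34.9 CPM in silenced shNup153_2 libraries and 28.01, 86.5 and 22.8 CPM in silenced shControl libraries. It had 161 and 259 CPM in basal shNup153_2, 189.7 and 238 CPM in basal shNup153_1 and 215, 116, 255 and 151 CPM in basal shControl libraries. Every silenced library was below every basal one (log2 fold change -2.06, SE 0.48, adjusted p = 0.0182). Cdkn1b, or p27, also fell (log2 fold change -0.56, SE 0.17, adjusted p = 0.0475). The G1 cyclin genes did not pass in shControl cultures, with Ccnd1 at log2 fold change -0.63, SE 0.46, adjusted p = 0.404 and Ccnd2 at log2 fold change -0.78, SE 0.51, adjusted p = 0.352.

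In shNup153_2 cultures 25 of the 96 rose in silenced libraries and 8 fell, where 9.39% of all genes rose and 12.3% fell. Their median log2 fold change was 0.38. Ndc80 (log2 fold change 2.56, SE 0.49, adjusted p = 0.00635), the G1 kinase gene Cdk4 (log2 fold change 0.77, SE 0.15, adjusted p = 0.00723), the passenger complex gene Cdca8 (log2 fold change 1.79, SE 0.36, adjusted p = 0.00797) and the origin licensing gene Cdc6 (log2 fold change 1.53, SE 0.36, adjusted p = 0.0142) had the smallest p and rose. Tspan31 overlaps 19.7% of Cdk4 exons on the opposite strand. Cdkn1a fell (log2 fold change -2.24, SE 0.54, adjusted p = 0.0158), as did Ccnd2 (log2 fold change -1.79, SE 0.59, adjusted p = 0.0488). Ccnd1 (log2 fold change -1.07, SE 0.53, adjusted p = 0.152) and Cdkn1b (log2 fold change -0.10, SE 0.20, adjusted p = 0.731) did not pass.

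Some markers of glial precursors moved with the mitotic genes across the states. Pdgfra, the receptor that marks oligodendrocyte precursors, had 50.2, 78.6 and 17.9 CPM in silenced shNup153_2 libraries and 71.6, 13.3 and 35.2 CPM in silenced shControl libraries. It had 3.62 and 1.76 CPM in basal shNup153_2, 107 and 40.6 CPM in basal shNup153_1 and 2.20, 1.65, 1.02 and 7.33 CPM in basal shControl libraries. Silenced shControl replicate 2 was the lowest of the silenced libraries, as it was for Mki67, and Pdgfra rose in silenced shControl (log2 fold change 3.67, SE 0.74, adjusted p = 0.00922) and silenced shNup153_2 cultures (log2 fold change 4.15, SE 1.00, adjusted p = 0.016). Sox10, a factor of the same lineage, had 11.2, 19.2 and 3.01 CPM in silenced shNup153_2 libraries and 17.5, 2.47 and 7.36 CPM in silenced shControl libraries. It had 0.0232 and 0.0799 CPM in basal shNup153_2, 26.9 and 7.03 CPM in basal shNup153_1 and 0.232, 0.0717, 0 and 2.11 CPM in basal shControl libraries. The basal shControl library without a count, replicate 3, allows up to 0.0899 CPM. Sox10 rose in shControl (log2 fold change 3.88, SE 1.09, adjusted p = 0.0385) and in shNup153_2 cultures (log2 fold change 7.67, SE 1.93, adjusted p = 0.0186). Cspg4, another precursor marker, had 25.6, 33.2 and 10.2 CPM in silenced shNup153_2 libraries and 39.5, 8.41 and 21.6 CPM in silenced shControl libraries. It had 8.14 and 8.44 CPM in basal shNup153_2, 34.0 and 20.1 CPM in basal shNup153_1 and 16.8, 4.52, 11.3 and 12.2 CPM in basal shControl libraries. It did not pass in shControl cultures (log2 fold change 0.99, SE 0.52, adjusted p = 0.242). The whole list of 9 oligodendrocyte lineage markers had 2 genes higher and 0 lower in shControl cultures, and 4 higher and 0 lower in shNup153_2 cultures.

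Summed over 8 of these 9 markers, those on lines usable in all 14 libraries, the level was 134 to 553 CPM in silenced shNup153_2, 226 to 406 CPM in silenced shControl, 218 to 325 CPM in basal shNup153_2, 719 to 720 CPM in basal shNup153_1 and 90.8 to 247 CPM in basal shControl libraries. The myelin gene Mog was at 0.324 CPM or less in the libraries measured. The basal shNup153_1 libraries departed from the pattern: Pdgfra stood at 107 and 40.6 CPM there, within or above the silenced range, while Mki67 stood at 2.49 and 0.338 CPM. The part of oligodendrocyte precursors in the rise of the mitotic genes was not tested.

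Of 9 astrocyte markers, 0 were higher and 1 lower in silenced shControl cultures, and 0 higher and 2 lower in silenced shNup153_2 cultures. Their summed level was 252 to 1317 CPM in silenced shNup153_2, 237 to 1172 CPM in silenced shControl, 2235 to 2573 CPM in basal shNup153_2, 1133 to 2900 CPM in basal shNup153_1 and 442 to 2488 CPM in basal shControl libraries. The astrocyte water channel gene Aqp4 was at 4.05, 33.5 and 1.63 CPM in silenced shNup153_2 libraries and 10.6, 39.6 and 2.48 CPM in silenced shControl libraries. Of these, silenced shControl replicate 2 was the highest for Aqp4 and was low for Pdgfra. Silenced shNup153_2 replicate 2, highest of the silenced libraries for Pdgfra, also stood high for Aqp4, so the markers did not run opposite in every library. Of 9 neural progenitor markers, 0 passed in shControl cultures, by edgeR, with 3 at an unadjusted p under 0.05, as were 5859 of all 20926 genes. In shNup153_2 cultures 1 was higher and 1 lower. Of 9 interneuron markers 6 fell in silenced shControl and 4 in silenced shNup153_2 cultures. The role of these shifts in the members' values was not tested.

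**Figure D4:**
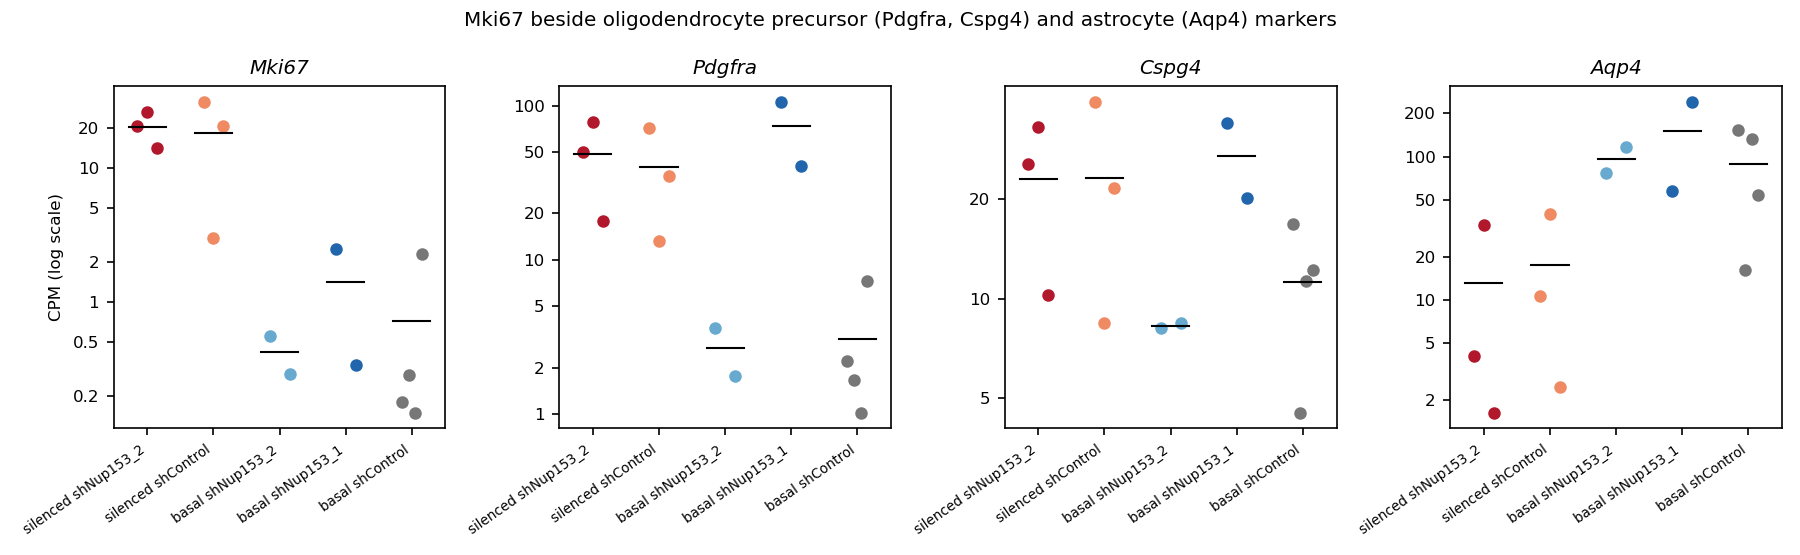
Levels of glial precursor and astrocyte markers beside Mki67 in each library, in CPM on log axes, with 1 point per library and the group mean as a line. Silenced shControl replicate 2 is low for Mki67 (2.99 CPM) and Pdgfra (13.3 CPM) and high for Aqp4 (39.6 CPM) among silenced libraries. Silenced shNup153_2 replicate 2 is high for Mki67, Pdgfra and Aqp4 alike, and basal shNup153_1 libraries are high for Pdgfra (107 and 40.6 CPM).

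Across the 12 libraries other than shNup153_1, the non-member genes whose log2 CPM followed Mki67 most closely among 15598 genes were the kinesin gene Kif2c (Pearson r 0.99), Gpr17, a receptor of the oligodendrocyte lineage (r 0.98), Pdgfra (r 0.98), the mitotic kinase gene Pbk (r 0.98) and Gm7353 (r 0.97). Of the 20 closest genes 9 were members. Among the members r ranged from 0.99 for Cdk1 to -0.72 for Ccne2, with -0.13 for Mcm7 and -0.22 for Ccne1. These libraries fall into the same 2 states, which all such values share, so they are a description.

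In silenced cultures, shNup153_2 changed 1 of the 37 genes relative to shControl, where 3.45% of 18965 genes passed, 1.61% higher and 1.83% lower. Ccne1 fell (log2 fold change -1.43, SE 0.18, adjusted p = 0.0157), with every shNup153_2 library below every shControl library. The median of the members was 0.06, against 0.01 over all genes, but it was 0.50 without silenced shControl replicate 1 and -0.31 without replicate 2. The call of Ccne1 was lost without silenced shControl replicate 1 or 3, or without silenced shNup153_2 replicate 1 or 3, while its log2 fold change stayed between -1.58 and -1.30 in all 6 such fits. Over all genes these fits gave 4 to 659 calls, against 654 with all libraries. With the replicate number as a block, 2 members passed, Ccne1 and Mcm7 (log2 fold change -0.38, adjusted p = 0.0377), and 4161 genes in all, against 654. Mki67 (log2 fold change 0.17, SE 0.70, adjusted p = 0.934), Cdk1 (log2 fold change 0.01, SE 0.58, adjusted p = 0.997) and Top2a (log2 fold change 0.17, SE 0.70, adjusted p = 0.934) did not pass. For Mki67 the 95% interval of the log2 difference ran from -1.49 to 1.82.

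Of the other cell cycle genes 3 rose and 1 fell in silenced shNup153_2 cultures, of 96 tested (4.17%, against 3.45% of all genes). These were the replication fork genes Rfc5 (log2 fold change 0.71, SE 0.12, adjusted p = 0.0305), Fen1 (log2 fold change 0.64, SE 0.12, adjusted p = 0.0374) and Rpa1 (log2 fold change 0.47, SE 0.09, adjusted p = 0.0424), and the APC/C gene Cdc27, which fell (log2 fold change -0.74, SE 0.11, adjusted p = 0.0241). On the opposite strand, Gm10143 and Tmem258 overlap 84.2% of Fen1 exons and Wsb2 10.7% of Rfc5 exons. In the same comparison 0 of the 9 astrocyte, 9 progenitor and 8 tested oligodendrocyte lineage markers passed, by edgeR, with 0 at an unadjusted p under 0.05.

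In basal cultures, shNup153_2 changed 5 of the 35 members tested relative to shControl, 1 higher and 4 lower, where 9.55% of 19682 genes passed, 5.91% higher and 3.64% lower. Cdk1 and Ccnb1 were under the filter on low counts. Ccne1 fell most (log2 fold change -2.47, SE 0.34, adjusted p = 0.00682), with 7.07 and 6.81 CPM in basal shNup153_2 libraries against 26.5 to 51.6 CPM in basal shControl libraries. Ccne2 (log2 fold change -1.42, SE 0.24, adjusted p = 0.0143), Plk1 (log2 fold change -1.90, SE 0.33, adjusted p = 0.0148) and Mybl2 (log2 fold change -1.59, SE 0.37, adjusted p = 0.0352) also fell without overlap. Tpx2 rose, with 5.42 and 6.15 CPM in basal shNup153_2 libraries against 1.54 to 3.00 CPM in basal shControl libraries (log2 fold change 1.23, SE 0.30, adjusted p = 0.0436). The groups were apart for 6 members above and 13 below, of 35, where 23.2% and 20.7% of all genes were. The median of the members was -0.19, against -0.03 over all genes. All 5 calls were lost without either of the 2 basal shNup153_2 libraries, and 3 members passed without basal shControl replicate 3 or replicate 4. Calls over all genes also fell in some of these fits, so the loss is not particular to the members. No fold change of the 5 moved by over 1.5-fold in any of these fits.

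**Figure D5:**
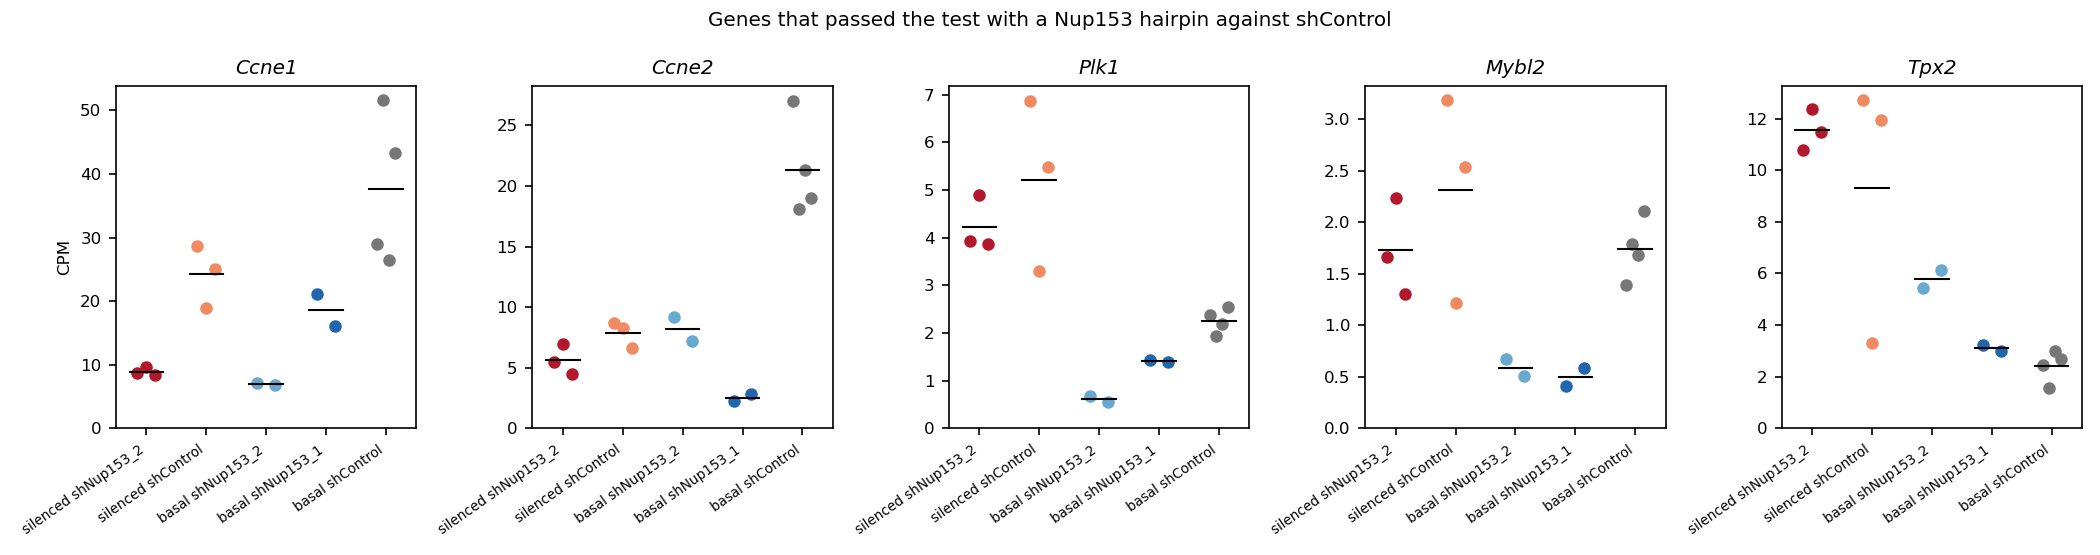
CPM (linear axis) in each library, 1 point each, of the members that passed the test with a Nup153 hairpin against shControl, lines marking group means. Ccne1 is lower in shNup153_2 than in shControl libraries in both states, and Ccne2 is lowest in basal shNup153_1 libraries (2.26 and 2.79 CPM).

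With the other hairpin, shNup153_1, 2 of the 37 members passed against basal shControl, 0 higher and 2 lower, where 13.6% of 14529 genes passed, 6.52% higher and 7.05% lower. Ccne2 fell to 2.26 and 2.79 CPM in basal shNup153_1 libraries, against 18.1 to 27.0 CPM in basal shControl libraries (log2 fold change -3.10, SE 0.28, adjusted p = 0.00163). Mybl2 fell to 0.414 and 0.584 CPM in basal shNup153_1 libraries, against 1.39 to 2.11 CPM in basal shControl libraries (log2 fold change -1.81, SE 0.38, adjusted p = 0.0181). Ccne1 had log2 fold change -1.04, SE 0.30, adjusted p = 0.0514 and so missed the threshold, with 21.1 and 16.1 CPM in basal shNup153_1 libraries. With the replicate block 0 members and 0 of all genes passed. An unadjusted p under 0.05 by edgeR was then found for 7 of 37 members and 2296 of 14529 genes. Without either of the 2 shNup153_1 libraries 1 call was left, and without basal shControl replicate 1 there were 4. Both hairpin comparisons use the same basal shControl libraries.

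The hairpins were also compared with each other in basal cultures. Of the 37 members 1 was higher and 1 lower with shNup153_2 than with shNup153_1, where 4.48% of genes passed, 2.81% higher and 1.67% lower, and the libraries of the hairpins lay wholly apart in 33.2% of genes, higher, and 30.1%, lower. Ccne2 was higher, with 9.16 and 7.19 CPM in shNup153_2 against 2.26 and 2.79 CPM in shNup153_1 libraries (log2 fold change 1.68, SE 0.28, adjusted p = 0.0192). E2f1 was lower, with 9.13 and 8.62 CPM in shNup153_2 against 24.6 and 20.4 CPM in shNup153_1 libraries (log2 fold change -1.35, SE 0.27, adjusted p = 0.0321), and basal shControl libraries lay between, at 10.6 to 17.5 CPM. With the replicate block 0 members passed. An unadjusted p under 0.05 by edgeR was then found for 5 of 37 members and 1939 of 14529 genes. Without basal shControl replicate 3 or 4, 1 member passed. Leaving out a hairpin library leaves 1 in its group, and the calls were not stable then. On leaving out any 1 library, the log2 difference ran from 1.49 to 1.85 for Ccne2 and from -1.47 to -1.21 for E2f1. Nup153 itself stood at 13.5 and 11.6 CPM in shNup153_2 and at 17.1 and 27.98 CPM in shNup153_1 libraries. In shNup153_1 libraries 6 of 8 oligodendrocyte lineage markers tested were higher than in basal shControl ones, Pdgfra among them (log2 fold change 4.57, SE 0.72, adjusted p = 0.00647), and what part this had in the members' values was not tested.

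Of the other cell cycle genes, 3 were higher and 2 lower with shNup153_2 than with shControl in basal cultures, of 92 tested (5.43%, against 9.55% of all genes). The inhibitor gene Cdkn1c, or p57, fell (log2 fold change -3.06, SE 0.50, adjusted p = 0.012), and the repressor gene E2f6 (log2 fold change 0.95, SE 0.19, adjusted p = 0.0243), the MuvB gene Lin9 (log2 fold change 1.08, SE 0.24, adjusted p = 0.0324) and Ncapd2 (log2 fold change 0.72, SE 0.17, adjusted p = 0.0395) rose. Gm44732 overlaps 30.7% of Cdkn1c exons on the opposite strand. With shNup153_1, 6 were higher and 3 lower of 92 (9.78%, against 13.6% of all genes). E2f6 (log2 fold change 1.25, SE 0.18, adjusted p = 0.00514), the MuvB gene Lin54 (log2 fold change 1.35, SE 0.21, adjusted p = 0.00598) and the cyclin gene Ccnd3 (log2 fold change 1.09, SE 0.18, adjusted p = 0.00818) rose, and Cdkn1b (log2 fold change -1.13, SE 0.23, adjusted p = 0.0167) fell. Between the hairpins, the cohesin gene Rad21 (log2 fold change 1.12, SE 0.20, adjusted p = 0.0235) was higher and Ccnd3 lower (log2 fold change -1.80, SE 0.23, adjusted p = 0.00953) with shNup153_2. Of the list 3.26% passed between the hairpins, against 4.48% of all genes.

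Whether the effect of shNup153_2 differed between silenced and basal cultures was tested as an interaction. By edgeR 0 of the 37 members and 0 of 20926 genes (0%) passed, with 4 members and 2393 genes at an unadjusted p under 0.05. DESeq2 called 1 member and 251 genes, limma-voom 0 members and 1 gene. The largest member differences, effect in silenced minus effect in basal cultures, were 1.59 for Plk1 and 1.22 for Birc5 on the log2 scale. For Ccne1 the difference was 1.01 (adjusted p = 0.361), so that a smaller fall in silenced cultures was not shown.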

How the data were processed

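Poly(A) RNA of primary cortical neuron cultures was sequenced from a strand-specific kit, per the labels' protocols. The authors deposited raw read counts per gene symbol in 2 tables, 1 for basal and 1 for silenced cultures, made with featureCounts 2.0.1 on mm10 per the submitters' processing notes. No aligner, annotation or strand setting is given in the sources used here, so reads of genes that overlap on opposite strands may not be told apart.

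Groups were taken from the sample titles, because the descriptions of the shNup153 samples name the control virus. Of the 16 labelled samples, 14 libraries were used: 2 columns of the basal table share 1 name and were not used, so that basal shNup153_2 and shNup153_1 have 2 libraries each. The shNup153_1 columns ran out of register with the gene names after line 16419, and only lines 1 to 16399 were used for them. All 37 members lie there. No 2 libraries held identical counts.

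edgeR 4.0.16 (R 4.3.3) was used with TMM scaling, filterByExpr at a minimum count of 10, a quasi-likelihood fit and Benjamini-Hochberg adjustment over all genes tested, called at FDR 0.05. Basal shNup153_2 was tested with basal shControl, shNup153_1 in a fit of the 3 basal groups, silenced groups alone, and the states and the interaction in 1 fit over both tables without shNup153_1. Confidence intervals of 95% used the t quantile of the quasi-likelihood degrees of freedom. CPM were computed with TMM factors over the 14 libraries, and the promoter words were matched to RefSeq sequence. Since 1 litter made 1 replicate, p-values measure the spread between litters' cultures. The main tests took no account of pairs of libraries. In silenced cultures, where the replicate numbers were taken to pair libraries, their p-values thus do not measure the spread of the effect within pairs. On simulated counts the fit recovered 22% of 2-fold and 89% of 4-fold changes in the basal shNup153_2 comparison, and 54% and 97% between the shControl states. Changes were planted only in genes with a mean above 1 CPM, with the spread typical of a gene's level and not the gene's own. Members such as Aurkb and Bub1 lay below 1 CPM in every basal library, so the shares do not cover them in the basal comparison.

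Replicates 1 to 3 carry numbers in both silenced groups. Deviations from the group means of same-numbered silenced libraries correlated at 0.29, 0.57 and 0.62 over all genes, so the numbers were taken to pair them, a pairing seen in the data and not stated in the labels. Over the 37 members alone the same correlations were 0.40, -0.41 and -0.36, so the members do not show it in 2 of the 3 pairs. DESeq2 1.42.0, limma 3.58.1 (voom), size factors of relative log expression (RLE), no filter, the replicate block and leaving out each library were the alternatives.

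Genes were given per library where they were 1 of 7 anchors of a role, passed in any comparison or held an outlying library, and otherwise by range. Other cell cycle genes named are those of smallest p, up to 4 per comparison, with Ccnd1, Ccnd2, Cdkn1a and Cdkn1b. One gene that this rule names is not reported here. The members, the lists and the promoter words were chosen with earlier results of these data known.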

Additional observations from a re-analysis of the deposited data

Results flagged for a closer look

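In basal shControl cultures, with 4 libraries, 1 library lay far from its 3 companions for 5 of the 37 genes (13.5%). The rule flags about 1 in 20 for independent, normally distributed values. Apart from Bub1b, these genes had few counts and shared the flagged library, replicate 4, so the shares cannot be compared. Mki67 reached 2.27 CPM, Cdk1 0.590 CPM, Aurkb 0.373 CPM and Ube2c 1.09 CPM in replicate 4, and Bub1b reached 4.19 CPM in replicate 3. In each the flag was the highest library, and replicate 4 also had the highest Pdgfra level of its group, 7.33 CPM. The part of other cells in these values was not tested.

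Between the 2 Nup153 hairpins in basal cultures, 2 of the 37 members (5.41%) passed the test of the difference, near the 4.48% of all genes that passed, and 0 passed with the replicate block or without either shNup153_2 library or shNup153_1 replicate 1. Ccne2 was higher with shNup153_2 than with shNup153_1 (log2 difference 1.68) and E2f1 was lower (log2 difference -1.35).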

How the results depend on the processing

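Beside the fits described above, the values that answer a comparison were the counts of members called and the medians of the members. Under an alternative, 262 of them stayed the same, meaning counts within 1.5 times or medians within their spread, whatever the sign. The median of -0.19 for basal shNup153_2 against shControl reached up to 0.17 and still counted as the same. In the rest, 14 counts of calls were larger and 31 smaller, by over 1.5 times or from or to 0. A further 2 medians moved by more than their spread. For shNup153_2 against shControl in basal cultures, the number of members higher was 0 with no filter on low counts, 2 with DESeq2 and 2 with the replicate block, and the number lower was 8 with DESeq2. For shNup153_1 against basal shControl, DESeq2 called 1 member higher and 5 lower, and the block 0 lower. Between shNup153_2 and shNup153_1, DESeq2 called 3 lower, and the block 0 higher and 0 lower. In silenced cultures the block called 2 lower. Between silenced and basal shControl, DESeq2 called 2 lower, and it called 1 member in the interaction. Over all genes, DESeq2 called 3624 against 1880 for basal shNup153_2, 3146 against 1971 for shNup153_1, 2102 against 651 between the hairpins, 1791 against 654 in silenced cultures and 251 against 0 in the interaction, and the block called 0 for shNup153_1 and 0 between the hairpins. In the interaction 3 genes passed with no filter, 2 with the block and 1 with limma-voom. A fit of only the 2 groups compared called 1203 genes for shNup153_1, 1255 against 2586 between the shControl states and 7714 against 4545 between the shNup153_2 states. The cause was not tested.

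Leaving out 1 library at a time gave 0 to 1 members higher and 0 to 5 lower for basal shNup153_2, 0 to 1 higher and 1 to 4 lower for shNup153_1, and 0 to 1 higher and 0 to 2 lower between the hairpins. Calls over all genes varied in these fits as well. In silenced cultures leaving out 1 library gave 0 to 1 lower, with a median of -0.31 to 0.50. Between the states it gave 11 to 24 higher and 1 to 2 lower in shControl cultures, and 1 to 27 higher in shNup153_2 cultures.

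Some fold changes that had not passed changed sign. Mki67 in basal shNup153_2 against shControl was 0.20 with limma-voom, 0.86 with the block and -1.32 to 1.04 on leaving out a library. Cdk1 in silenced shNup153_2 was -0.0072 with no filter. The interaction with the block was -0.63 for Mki67 and -0.19 for Cdk1, and without 1 library it was -0.93 to 1.501 for Mki67 and -0.30 to 1.07 for Cdk1. Without 1 library, shNup153_1 against shControl gave -0.67 to 2.31 for Cdk1, -1.09 to 2.79 for Mki67 and -0.14 to 0.53 for Pcna, and shNup153_2 against shNup153_1 gave -2.91 to 0.062 for Cdk1, -2.53 to 0.32 for Mki67 and -0.67 to 0.46 for Top2a. Silenced against basal shControl gave -0.0087 to 0.21 for Pcna. Silenced shNup153_2 against shControl gave -0.41 to 0.51 for Cdk1, -0.080 to 0.13 for E2f1, -0.31 to 0.13 for Mcm2, -0.34 to 0.80 for Mki67, -0.021 to 0.060 for Pcna, -0.061 to 0.61 for Rrm2 and -0.34 to 0.67 for Top2a.

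Outside the silenced groups the replicate numbers were not taken to pair libraries. Same-numbered libraries correlated in their deviations at 0.24 and 0.05 for basal shNup153_2 with shControl and at -0.58 and -0.65 for shNup153_1 with shControl, at -0.0010 between the hairpins, at 0.10, -0.21 and -0.21 between the shControl states and at 0.10 and 0.18 between the shNup153_2 states. With the block 5 members passed for basal shNup153_2 against 5 without, 4 of them shared. Mybl2 no longer passed and Top2a did (log2 fold change 2.34, adjusted p = 0.00865 by edgeR, against 0.83 and 0.594 without the block). The block gave 19 against 21 between the shControl states and 21 against 24 between the shNup153_2 states. With few counts per basal library for the mitotic genes, and 2 libraries in each basal shNup153 group, differences of 2-fold were often beyond what could be detected.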
